A study of Oryza sativa Indica Group with 4 samples.

Results

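Gibberellins are diterpenoid growth hormones that control stem elongation, leaf growth and flowering in rice. Their synthesis starts in plastids, where a copalyl diphosphate synthase and a kaurene synthase fold geranylgeranyl diphosphate into ent-kaurene. Cytochrome P450 oxidases then carry the product to GA12, dioxygenases (GA20ox, then GA3ox) make the bioactive forms, and GA2ox enzymes or the P450 EUI1 inactivate them. The genes described here were those whose symbol or synonym, with or without an Os prefix, was CPS1, KS1A, KAO, SD1, EUI1, or GA20ox, GA3ox or GA2ox followed by a digit. The rule found 6 of the 17905 genes with a named probe set, each with 1 probe set: CPS1, KS1A, KAO, SD1 (also named GA20ox2), GA20ox3 and EUI1. No GA3ox or GA2ox gene was matched by name, so those steps were not analysed here.

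Transcripts were measured on 4 Affymetrix rice arrays, 2 of the Indica cultivar Basmati 370 (B370), the wild type, and 2 of its T-DNA insertional mutant line named OsAPC6, for a subunit of the anaphase-promoting complex. Both groups were seedlings taken 15 days after germination and grown without a stated treatment, and each array used 8 µg of total RNA. The mutant stands for 1 insertion line, as far as the labels say, and the OsAPC6 transcript was not analysed here. Levels are linear array signals as deposited, and differences are on the log2(signal + 16) scale, mutant minus wild type, tested with limma over 38172 probe sets at a Benjamini-Hochberg adjusted p of 0.05.

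The question was whether transcripts for the steps of gibberellin metabolism differed between the mutant and its parent cultivar. The signals of CPS1 and KS1A, for the first 2 steps, fell, and that of the P450 gene KAO rose. The GA20ox genes did not pass the test. The inactivation gene EUI1, at 0.99, had the largest difference but did not pass. With 64 added in place of 16 it was 0.54, smaller than the 0.56 by which KS1A fell. Of the 6 genes, 2 were called lower and 1 higher, or 3 in all. Across the array 10.2% of tested probe sets were called lower, 8.78% higher and 19.0% in either direction. At the signal levels of the 5 brighter genes the share called was higher, between 30.8% and 36.9%, so 3 calls among 6 genes are read against those shares too. The median difference of the 6 was 0.15, against -0.013 over all probe sets tested.

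**Figure D1:**
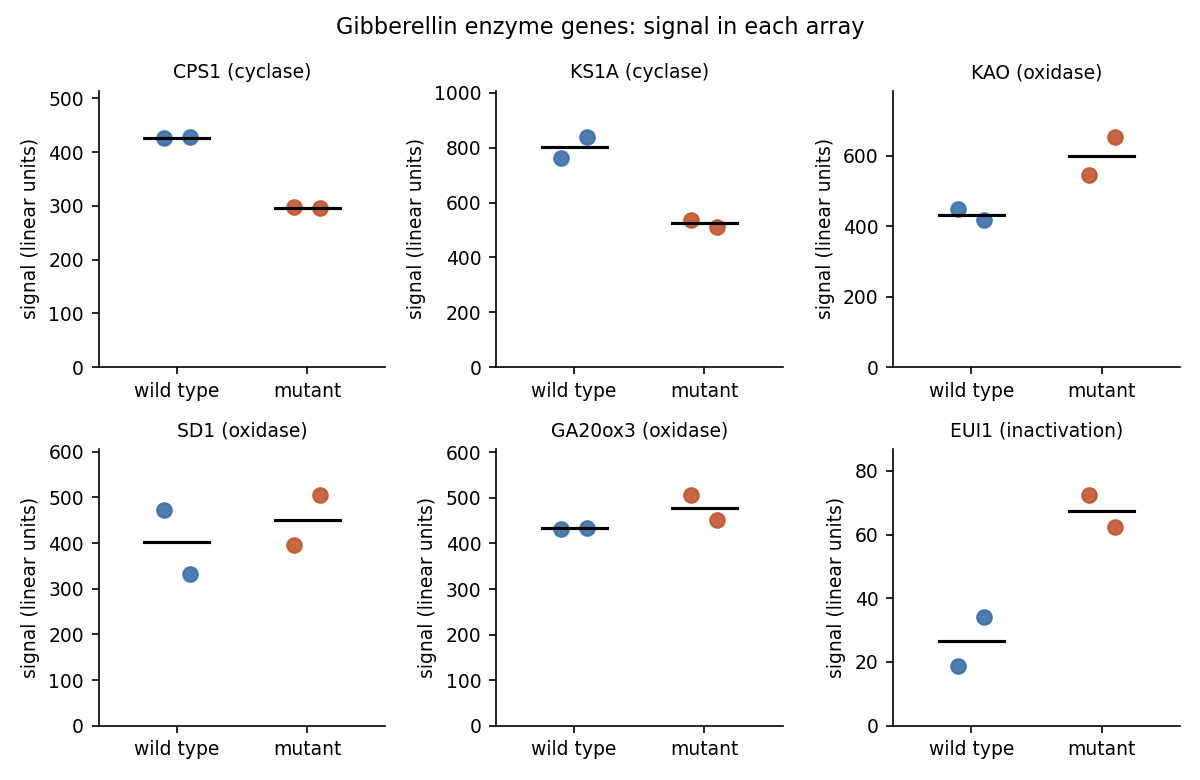
Deposited linear signal of each gene in each array, with a panel per gene, points for arrays and a bar for the mean of 2 arrays. The mutant points of CPS1 (298 and 295.5) and KS1A (536.2 and 512) lie below both wild-type points. Those of KAO (546.5 and 654.8), GA20ox3 (506.1 and 451.5) and EUI1 (72.4 and 62.5) lie above them. GA20ox3 and EUI1 did not pass the test. The mutant points of SD1 overlap the wild type.

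CPS1, the ent-copalyl diphosphate synthase that commits the precursor to gibberellins, read 425.6 and 429 in the wild type and 298 and 295.5 in the mutant. The replicates lay close together in both genotypes. The groups did not overlap, which held for 56.7% of all tested probe sets. The mean went from 427.3 ± 2.40 (SD, n = 2) to 296.75 ± 1.77 (n = 2), 1.44-fold lower. The log2 difference was -0.50 (SE 0.13; limma adjusted p = 0.0253). Leaving out any 1 of the 4 arrays kept the difference between -0.51 and -0.50 but took the limma adjusted p to between 0.0562 and 0.12.

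KS1A, the kaurene synthase that acts on the product of CPS1, read 761.6 and 840.5 in the wild type and 536.2 and 512 in the mutant. Again the lowest wild-type array was above the highest mutant array. The mean fell from 801.05 ± 55.8 to 524.1 ± 17.1 (SD, n = 2 each), 1.53-fold, and the log2 difference was -0.60 (SE 0.11; limma adjusted p = 0.00375). It was the only 1 of the 6 whose call held without each of the 4 arrays in turn, at differences of -0.67 to -0.53. Its probe set ends in _s_at, which in Affymetrix naming marks probes shared by several transcripts, and the gene entry joins KS1A, KS1B and KS1C. A share of the signal from relatives was therefore not separated.

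KAO (CYP88A5), the ent-kaurenoic acid oxidase that leads to GA12, moved the other way. Its signals were 447.8 and 419.3 in the wild type and 546.5 and 654.8 in the mutant, without overlap. The mean rose from 433.55 ± 20.2 to 600.65 ± 76.6 (SD, n = 2 each), 1.39-fold. The log2 difference was 0.45 (SE 0.13; limma adjusted p = 0.0347). Without the first or second wild-type array or the second mutant array the call was lost, at differences of 0.50, 0.41 and 0.32 (limma adjusted p = 0.0725, 0.149 and 0.187), and it was also lost without the filter on low signal (limma adjusted p = 0.0733).

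SD1, the GA20ox2 gene whose loss gives semidwarf rice, varied more between replicates than between genotypes. It read 473 and 331.3 in the wild type and 396.8 and 505.2 in the mutant, so the groups overlapped. The log2 difference was 0.17, with a 95% interval from -0.24 to 0.58 (limma adjusted p = 0.599). That interval includes no change as well as a rise as large as that of KAO. Without the second wild-type array the difference changed sign, to -0.076.

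GA20ox3, a further C20 oxidase gene, had nearly equal wild-type signals of 432.7 and 433.8, and mutant signals of 506.1 and 451.5. Both mutant arrays were above the wild type, which was so, or the reverse, for 56.7% of all tested probe sets. The ratio of means was 1.11, and the log2 difference of 0.14 had a 95% interval from -0.14 to 0.41 (limma adjusted p = 0.523). A change of the size seen in CPS1, in the downward direction, lies outside that interval.

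EUI1 (CYP714D1), the P450 that inactivates gibberellins by epoxidation and whose loss elongates the uppermost internode, was the dimmest of the 6. It read 18.8 and 34.2 in the wild type and 72.4 and 62.5 in the mutant. Both mutant arrays were above both wild-type arrays, with means of 26.5 ± 10.9 and 67.45 ± 7.0 (SD, n = 2 each). No detection calls were used. Reporter probe sets for sequences that are not rice genes served as a comparison. A reporter described in the closing sections, which read 245.6 or more in every array, was left out. Of the other 63, 18 and 2 read at or above EUI1 in the wild type and 1 and 0 in the mutant. The wild-type level is therefore not shown to be above background, and no fold is given. On the log2 scale with 16 added, which understates changes of dim probe sets, the difference was 0.99 (SE 0.40), with a 95% interval from 0.11 to 1.88. It did not pass (limma adjusted p = 0.118, unadjusted p = 0.0317). The added number set the size: the difference was 1.41 with nothing added and 0.54 with 64 added, and neither passed (limma adjusted p = 0.129 and 0.107).

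**Figure D2:**
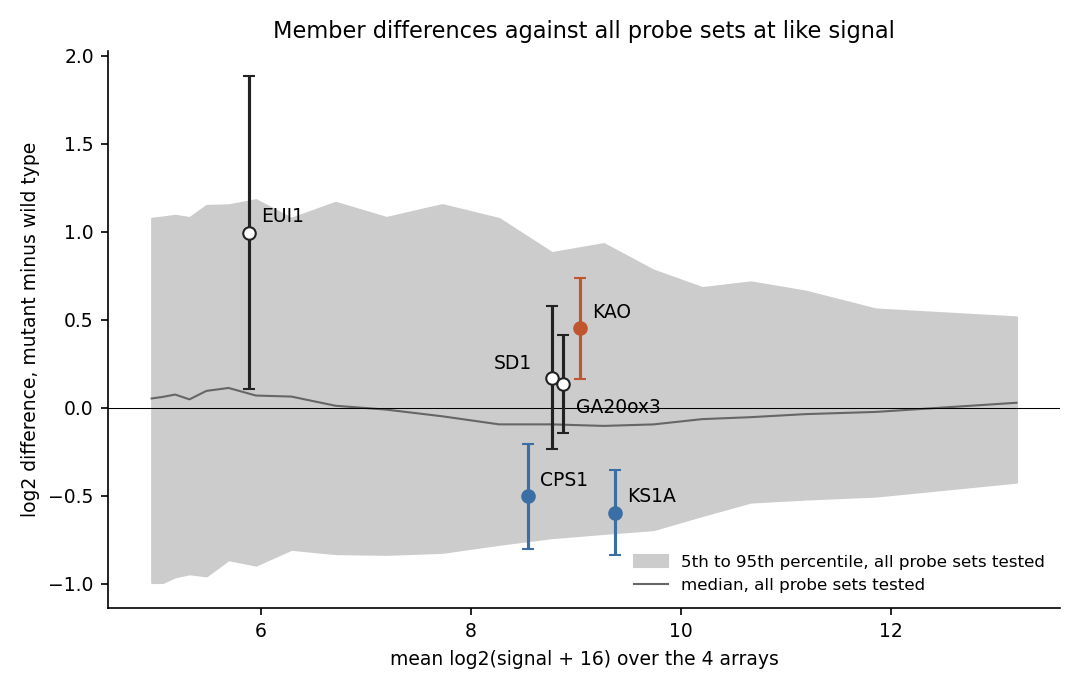
Log2 difference (mutant minus wild type) against mean log2(signal + 16) for the 6 genes, with bars for the 95% interval, filled points for genes past the test, and a grey band from the 5th to the 95th percentile of all probe sets tested. All 6 points lie inside the band, with EUI1 at 0.99 highest and KS1A at -0.60 lowest.

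Set against all probe sets, the members' differences were of ordinary size. The absolute differences of CPS1, KS1A and KAO were larger than those of 70.4%, 76.9% and 66.0% of the probe sets tested, and that of EUI1 larger than those of 92.4%. Among 1908 probe sets in the signal band of EUI1, the 95th percentile was 1.18 and 4.04% were called, so few probe sets this dim passed at any size. In the band of KS1A and KAO the 5th and 95th percentiles were -0.71 and 0.93, and both genes lay between them.

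The step between KS1A and KAO is carried out by ent-kaurene oxidase, encoded by KO2 (D35, CYP701A6). It had 2 probe sets, both ending in _x_at, a suffix for probes that may bind other transcripts. The gene entry also carries the names KO1, KOL2, KOL3, KOS4 and CYP701A19, so a share of the signal from relatives was not separated. One read 286 and 618.9 in the wild type and 371.5 and 404.2 in the mutant, and the other 199.9 and 179.6 against 183.3 and 205. Both overlapped between genotypes. The log2 differences were -0.12 and 0.030 (limma adjusted p = 0.829 and 0.942), with 95% intervals from -0.73 to 0.49 and from -0.39 to 0.45. KOL4 (CYP701A8), a KO-like P450 that hydroxylates diterpenes of the phytoalexin route, read 429.2 and 319.6 in the wild type and 2579.6 and 2698.2 in the mutant. It rose by 2.78 (SE 0.13; limma adjusted p = 5.26e-07), 7.05-fold. KOL5 (CYP701A9), another KO-like P450 gene, read 26 and 11 against 75.1 and 56.2 and did not pass (log2 difference 1.27, limma adjusted p = 0.0715). In the list of other route enzymes, 7 probe sets were tested, KOL4 was the 1 called and none was called lower, with a median of 0.35. Over all probe sets tested, 19.0% were called. The rest of that list were probe sets of the EUI1 relatives CYP714C1 and CYP714C2, with differences from -0.18 to 0.46 and none past the test.

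The first cyclases of gibberellin and phytoalexin synthesis use the same precursor. CPS2, which makes the same ent-copalyl diphosphate as CPS1 but for phytocassanes, read 310.7 and 249.1 in the wild type and 384.9 and 570.8 in the mutant, a rise of 0.72 (SE 0.19; limma adjusted p = 0.0265). That call was lost without the second wild-type array, the second mutant array or the filter on low signal (limma adjusted p = 0.124, 0.16 and 0.094). CPS1 fell where CPS2 and CPS4, the cyclase of the momilactone route, rose. Where 8.78% of all probe sets tested were called higher, 4 of 6 for phytoalexin cyclases and synthases were called higher and none lower, with a median of 1.45. They were those of CPS2, CPS4, KSL4 and 1 of the 2 of KSL7. The call of KSL4 was lost without the second mutant array (limma adjusted p = 0.0741). The second KSL7 probe set, with signals of 9.3 to 47.9, was at 0.047 and KSL5 at -0.18, and neither passed.

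The difference between branches was itself measured within each array as the log2 signal of the relative minus that of the gibberellin gene. From wild type to mutant this quantity changed by 1.22 for CPS2 and 4.46 for CPS4 against CPS1. Against KS1A it changed by 4.65 and 0.64 for the KSL7 probe sets, by 0.41 for KSL5 and, with KSL4 at 7.6 and 1 in the wild type, by 2.78, a size set by the added 16. The wild-type signals of CPS4 (53.1 and 50.6) and of the called KSL7 probe set (24 and 34.2) were also low enough for the added 16 to reduce their values. Against either KO2 probe set the quantity changed by 2.90 and 2.75 for KOL4 and by 1.39 and 1.24 for KOL5. The values of KOL5, at 26 and 11 in the wild type, were also reduced by the added 16. The first KO2 probe set differed between its wild-type arrays, at 286 and 618.9. Within the gibberellin route, KAO changed by 0.95 relative to CPS1 and by 1.05 relative to KS1A. The mutant and wild-type arrays overlapped in 1 of the 12 pairs, that of the dim KSL7 probe set, and not in the other 11. Among single probe sets tested, 56.7% did not overlap, and the share for pairs over the array was not computed. The 12 pairs share genes and are not independent. Most of these pairs hold a gene already called, so their separation is no further support. The exact two-sided permutation test over the 4 arrays gave p = 0.333 for those 11, which is the smallest that 2 arrays against 2 can give (0.364 after Benjamini-Hochberg adjustment over the 12), and p = 0.667 for the other.

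**Figure D3:**
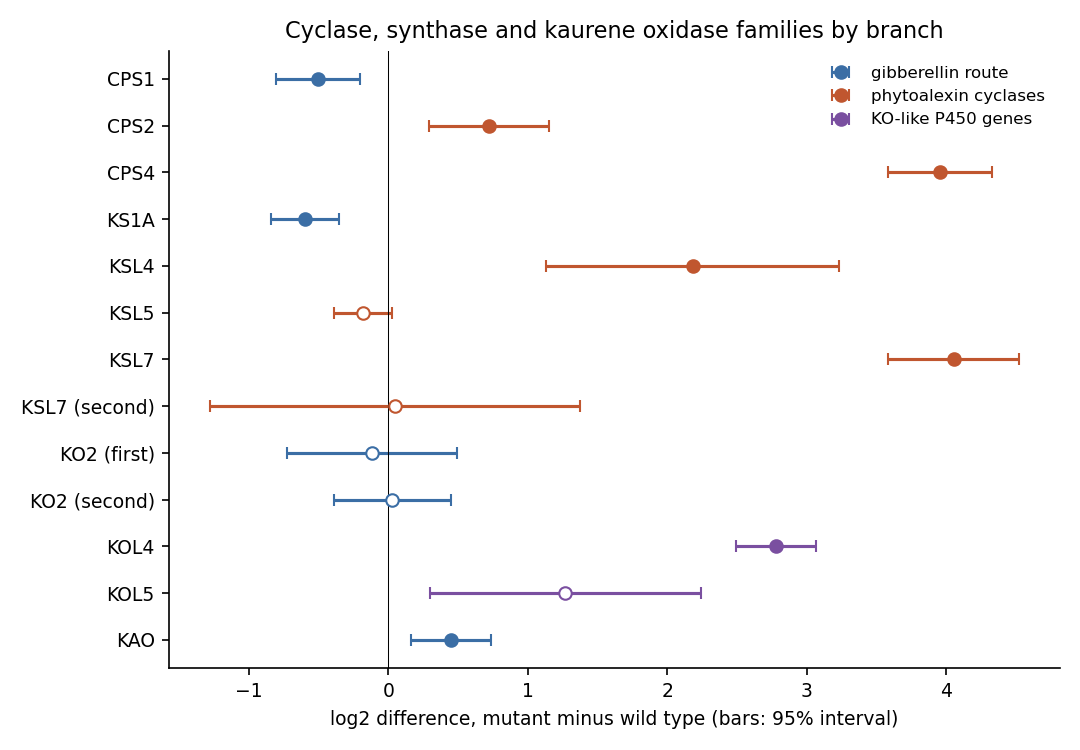
Log2 difference (mutant minus wild type) with its 95% interval for gibberellin route genes (blue), phytoalexin cyclases and synthases (orange) and KO-like P450 genes (purple), with filled points past the test. CPS1 and KS1A lie at -0.50 and -0.60, both KO2 probe sets near 0, and CPS4 and KSL7 at 3.96 and 4.05.

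Upstream of the cyclases, plastids supply the precursor by the methylerythritol phosphate pathway. Of 5 tested probe sets of its list, ISPG was called higher and none lower, with a median of 0.16, where 19.0% of all probe sets tested were called. All 5 were bright, and in the signal bands that span them between 33.4% and 39.5% were called. ISPG went from 6212.3 and 6356.3 to 7162.9 and 7287, a difference of 0.20 (SE 0.06; limma adjusted p = 0.0496). That call was lost without any 1 array (limma adjusted p from 0.0602 to 0.285), without the filter on low signal (0.105), with quantile normalization (0.0544) and with the replicate number as a block (0.105). DXR and ISPH, which act early and last in the pathway, had differences of 0.15 and 0.17 and did not pass (limma adjusted p = 0.166 and 0.112). The name MCS also matched a gene named MCSU3, of another function, with 2 probe sets, of which 1 was tested (-0.18) and is in the count.

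Downstream, gibberellin is sensed by the receptor GID1, which with the hormone leads the DELLA repressor SLR1 to degradation. Of 11 tested probe sets for signalling and response, 1 was called higher and 1 lower, where 19.0% were called over all probe sets tested. Most of the 11 were bright, and between 30.8% and 39.5% of probe sets were called in the signal bands that span them. The second GID1 probe set and that of SLRL1 were far dimmer. Their median was near 0 (-0.0019). GID1 read 2322.1 and 2583.3 in the wild type and 2879.3 and 3011.9 in the mutant (log2 difference 0.26, limma adjusted p = 0.0412), while its second, dim probe set was at -0.10. CIGR2, a gibberellin-responsive GRAS gene, read 2688.5 and 2495.1 against 2224.3 and 2088.2 (-0.26, limma adjusted p = 0.0395). Both calls were lost without either wild-type array, without the second mutant array and without the filter on low signal (limma adjusted p from 0.0517 to 0.301), and that of CIGR2 also with a common 75th percentile (0.0722). CIGR1, named alongside CIGR2 in the list, was at -0.043 (limma adjusted p = 0.716). SLR1 was at -0.054 (limma adjusted p = 0.730) and GAMYB at 0.17 (limma adjusted p = 0.431). YAB1, a YABBY factor of the gibberellin feedback, was at 0.32 (limma adjusted p = 0.114) and SPY, a negative regulator of the response, at 0.14 (limma adjusted p = 0.269). The kinesin-like GDD1, which binds the KO2 promoter, was at -0.15 (limma adjusted p = 0.336). The probe set matched by the name GID2 belongs to an entry also named GF14E, a 14-3-3 protein. It is not read as GID2, but it is among the 11 tested, and its difference is the list's median.

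In the gene order of RefSeq assembly ASM3414082v1, KS1A lies between KSL3 and KSL2, whose transcripts were not analysed here. Among the 3 protein-coding genes on each side of the 6 members, 20 had a probe set. Of their 23 probe sets tested 1 was called higher and 1 lower, a smaller share than the 19.0% called over all probe sets tested. The higher one was the third gene on one side of KS1A, with signals of 863.8 and 854.6 in the wild type and 2011.6 and 1755.5 in the mutant. It rose by 1.11 (limma adjusted p = 2.76e-05), opposite to KS1A.

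Several measures of tissue and RNA moved with genotype, and their part in the differences was not tested. Green tissue was plainly present, with CAB2R giving the highest signal of all, 53054.5 in a mutant array. Of its markers, 5 of 11 probe sets for RBCS, RCA and CAB2R were called higher and none lower. In the brightest signal band 35.7% of all probe sets were called, but the dimmest of the 11, at 9.5 to 29.2, lie far below it. The calls were all the RCA probe sets and a single RBCS one. CAB2R did not pass (limma adjusted p = 0.0800 and 0.0904), and the other RBCS probe sets ranged from -0.46 to 0.39. The summed signal of the 11 was 190006 and 194956 in the wild type and 239924 and 219752 in the mutant. LSI1, the root silicon channel, went from 1522.8 and 1836.5 to 967.1 and 1025.3, a fall of 0.74 (limma adjusted p = 0.000798). LSI2 and IRT1, the other root markers matched, did not exceed 27.8 in any array, and the root list summed to 1527.1 and 1865.1 against 969.6 and 1054.4. In whole seedlings, fewer cells of a type and less RNA per cell cannot be told apart. For the GAPDH control, signal at the 3′ end over that at the 5′ end was 9.72 and 9.84 in the wild type and 18.4 and 16.2 in the mutant. For ubiquitin the ratios were 1.04 and 1.03 against 1.32 and 1.27, also without overlap, while those of actin and cyclophilin overlapped. No growth, harvest or labelling batch is stated, so a batch shared by the arrays of a genotype and the genotype cannot be told apart.

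Among the 14 other ways of processing tried, no called gene changed sign. KS1A kept its call in 13, and CPS1 and KAO in 9 each. With a single variance prior in place of one that follows signal level, none of the 6 passed (limma adjusted p from 0.113 for KS1A upward), though 4 had an unadjusted p under 0.05.

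**Figure D4:**
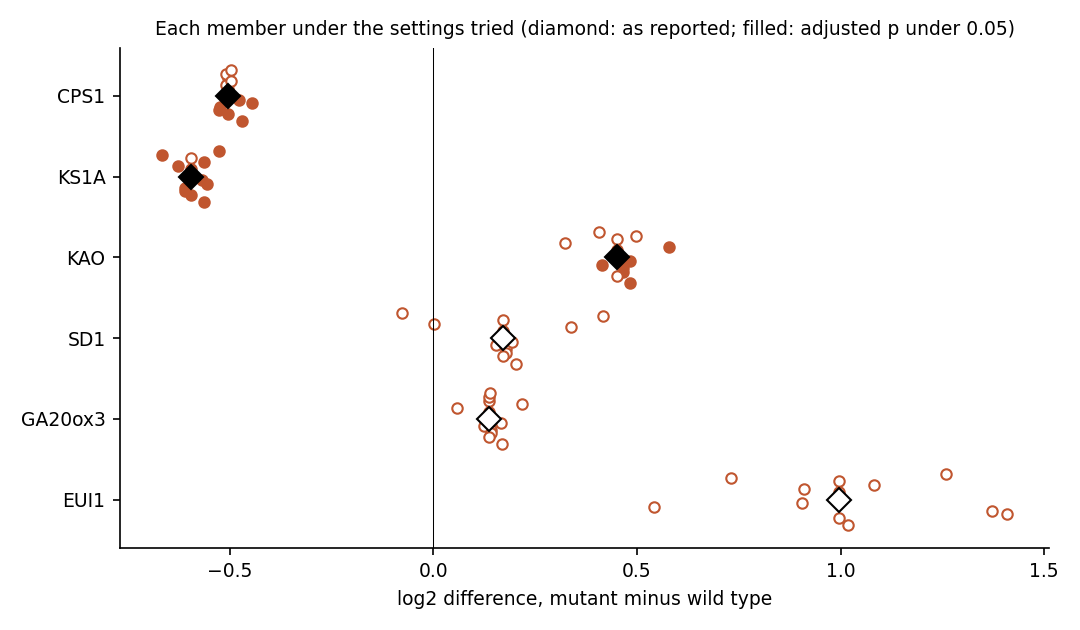
Log2 difference (mutant minus wild type) of each gene as reported (diamond) and under 14 other settings (circles), filled where the limma adjusted p was under 0.05. CPS1 ranged from -0.53 to -0.45, KS1A from -0.67 to -0.53, KAO from 0.32 to 0.58, SD1 from -0.076 to 0.42, GA20ox3 from 0.057 to 0.22 and EUI1 from 0.54 to 1.41.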

How the data were processed

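Biotin-labelled cRNA from total RNA was read on Affymetrix rice arrays, 1 per sample, per the labels' protocols. The deposited values are linear probe set intensity values for which the submitters' processing notes name GCOS 1.2; how signal was computed is not given in the sources used here. From the values, each array's mean after trimming 2% at each end was 500.1. Left out were 123 AFFX controls, then the third of the rest with the lowest mean log2(signal + 16), 19086 in number, which left 38172 of 57381. All 6 members passed this filter.

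Mutant and wild type were compared in R 4.3.3 with limma 3.58.1 (eBayes with an intensity trend), Benjamini-Hochberg adjusted over all 38172. Log2 signals correlated at 0.98 between wild-type arrays and 0.977 between mutant arrays, and at 0.963 to 0.964 between genotypes. Only 2 arrays per genotype limit the precision. Names came from the array annotation by way of RefSeq gene numbers (22436 probe sets with 1 gene, all matched; 95 with several, not named). The members and lists were chosen with earlier results of these data known. Every member is named, and from the lists each gene that passed; others named were chosen after their values were seen. Alternatives were the pseudocount, the filter, the scaling, the variance prior, a replicate block and leaving out arrays.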

Additional observations from a re-analysis of the deposited data

Results flagged for a closer look

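RPTR-Os-K01193-1_at, a reporter that is no rice gene but was among the probe sets tested, averaged 10188 in the mutant and 266.4 in the wild type. The highest signal among the 63 further reporters was 78.5.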

How the results depend on the processing

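Without the intensity trend limma called 0 of the 38172 probe sets (9039 at an unadjusted p under 0.05), against 7244, and therefore 0 of the 6 genes higher and 0 lower, and 0 and 0 in the lists of other route enzymes and signalling; the cause was not tested. Without the filter on low signal, which raises the number tested, 0 of the 6 were called higher, and in those lists 1 was called higher and 0 lower. A common 75th percentile left 0 called lower in those lists and turned the balance of all calls from 46.3% to 52.5% higher. Leaving out 1 array at a time, which assumes that a lone array varies like the other group, gave 4633 to 6536 calls across the array, 0 to 1 of the 6 genes higher, 1 lower in every case, and in the lists 1 to 3 higher and 0 to 1 lower, against 2 and 1. The fewest calls came without the second wild-type array (4633) and without the first (4772). SD1 changed sign without the second wild-type array, to -0.076, and was at 0.42 without the first. The remaining settings run (another pseudocount, a stricter filter, quantile normalization, a robust prior) kept the members' counts at 1 higher and 2 lower. With pseudocount 0, a setting chosen after seeing the data, 7000 were called. Deviations of replicate 1 did not correlate between wild type and mutant (3.1e-05), which does not show whether replicates were grown or processed in pairs. The replicate block gave 7661 calls and changed no member's call. Low signal limits EUI1.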
